A study of Mus musculus with 21 samples.

Results

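Smooth muscle cells labelled tracheal (TSMC) were set against those labelled vascular (VSMC) and intestinal (ISMC), to find the genes that went the same way against both groups. The 3 groups hold 3 libraries each, 9 of the 21 in the series, which otherwise holds testicular cells. All 9 come from untreated primary cells of C57BL/6J mice, obtained from a commercial supplier as smooth muscle-like cells and grown in DMEM/F12 with fetal bovine serum. Age, passage and the number of animals are not given in the sources used here. Nothing there says that the 3 libraries of a group came from separate animals or cultures, so the p-values cover only how far these libraries differ, and that difference may be technical. Genes with at least 1 FPKM (fragments per kilobase, with the library's mapped total divided out) in at least 3 of the 9 libraries were tested, which gave 11439 of the 19285 genes with values.

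Smooth muscle forms locally in each organ, and its cells keep a record of where they arose. Airway smooth muscle comes from foregut mesenchyme, where forkhead and T-box transcription factors set the identity of trachea and lung. Intestinal smooth muscle comes from gut mesenchyme further back, and vascular smooth muscle from several sources that include the neural crest. Hox genes, which lie in clusters and switch on in sequence along the body axis, mark how far back a mesenchymal cell arose. In the trachea, smooth muscle sets airway calibre in answer to constrictors and relaxants, and it also secretes cytokines and matrix.

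Smooth muscle markers were looked up first. They bear only on the smooth muscle part of the labels, and the organ named in each label was taken as given. Acta2, smooth muscle α-actin, stood at 2268, 2189 and 2194 FPKM in TSMC, at 2464, 2334 and 2299 FPKM in VSMC and at 2367, 2351 and 2493 FPKM in ISMC. Tagln, which encodes transgelin, averaged 1863 ± 85, 1888 ± 65 and 1995 ± 82 FPKM in the same order (SD, n = 3 each). Myh11, Cnn1, Actg2 and Des, which was low in all groups, are given with the contractile genes below. Of intestinal epithelial markers 10 were measured, and they summed to at most 1.4 FPKM in any library. Other cell types did leave RNA: macrophage and leukocyte markers summed to 255 to 282 FPKM in VSMC libraries and 539 to 733 in ISMC libraries. Endothelial markers summed to 334 to 348 and 321 to 328 FPKM in the same order. Both were lower in TSMC, as described below. VSMC and ISMC resembled each other more than either resembled TSMC: across the tested genes the mean Pearson correlation of log2(FPKM + 1) was 0.9554 between TSMC and VSMC libraries, 0.9606 between TSMC and ISMC libraries and 0.989 between VSMC and ISMC libraries, against 0.9977 to 0.9979 within groups. Those correlations run over genes, which are not independent replicates. A principal component analysis of the 9 libraries put 77.9% of the variance on component 1. Read counts were not used here. The steps between low FPKM values put the depth at 21650000 to 22350000 fragments per library, and replicates differed by 1.3 to 2.5 times the variance that counting alone gives.

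Against VSMC, 369 genes were called higher in TSMC (3.23% of those tested) and 318 lower (2.78%). Against ISMC, 214 were called higher in TSMC (1.87%) and 407 lower (3.56%). A call needed an adjusted p under 0.05 by limma on log2(FPKM + 1) and an absolute log2 difference of at least 1. Called the same way against both groups were 204 genes higher in TSMC (1.78%) and 294 genes lower (2.57%). The 2 comparisons share the TSMC libraries, so a deviation of those libraries enters both. In all 204 genes the lowest TSMC library lay above all 6 others, which held for 27.9% of all tested genes, and in all 294 the highest TSMC library lay below them, which held for 19.3%. A call already asks for a gap from both groups, so this separation largely follows from it and is no separate support. The smaller of the 2 absolute log2 differences had a median of 1.37 among the higher genes and 1.49 among the lower genes, and reached 2 in 36 and 67 of them. With 5 added before taking logs in place of 1, 86 genes were called higher than both and 102 lower, and with 0.1 added 319 and 462, because the addend sets how far a low level can move. VSMC and ISMC differed from each other in 2 genes called higher in VSMC and 152 called higher in ISMC.

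**Figure D1:**
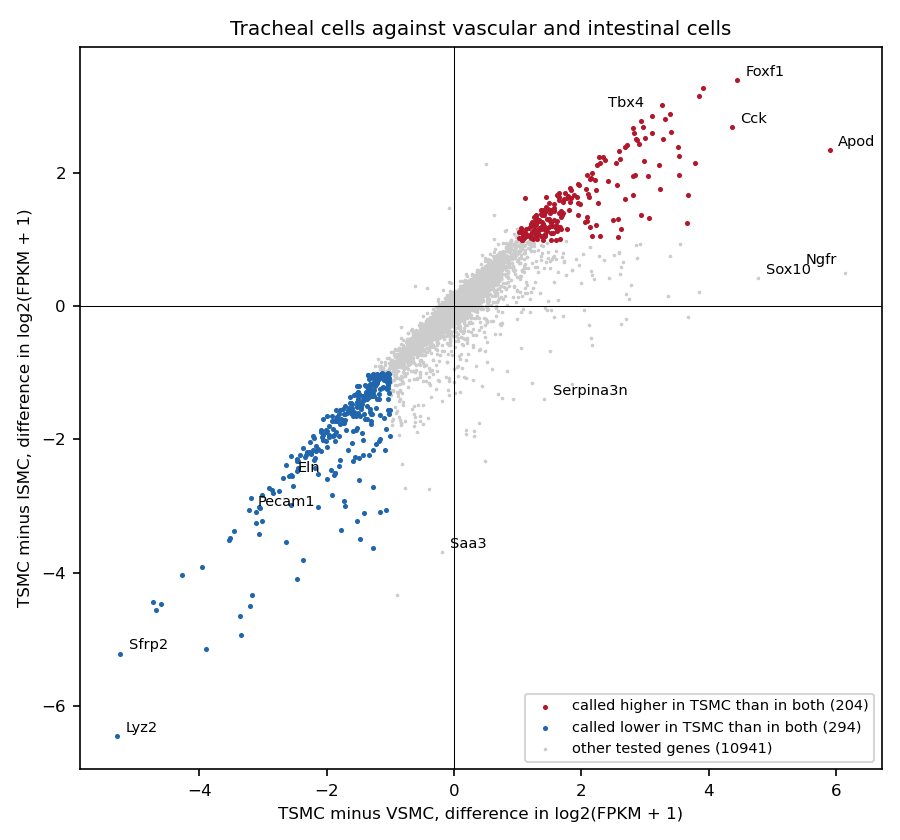
Each point is a tested gene, placed by its difference in log2(FPKM + 1) between TSMC and VSMC (horizontal) and between TSMC and ISMC (vertical). The 204 genes called higher in TSMC than in both lie at the upper right and the 294 called lower at the lower left, while Ngfr and Sox10 lie far to the right of 0 with little difference from ISMC.

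The genes listed for airway and foregut mesenchyme hold transcription factors and signalling genes, and some of both differed in tracheal cells. Of 29 listed genes 21 were tested, of which 7 were higher in TSMC than in both groups and 3 lower. For this and every list below, the shares over all tested genes were 1.78% higher and 2.57% lower than both. Their median log2 difference was 0.960 against VSMC and 0.861 against ISMC, set beside 0.062 and 0.023 over all tested genes. Foxf1, a forkhead factor of foregut and lung mesenchyme on chromosome 8 (121084386 to 121088154, mm10), had 30.6, 29.2 and 28.4 FPKM in TSMC, 0.31, 0.44 and 0.44 FPKM in VSMC and 1.99, 2.1 and 1.57 FPKM in ISMC. No other library came near the TSMC values. The log2 difference was 4.44 (SE 0.07) against VSMC and 3.40 (SE 0.07) against ISMC, with adjusted p of 7.46e-15 and 1.71e-13. Foxl1, another forkhead gene of gut mesenchyme and its neighbour (chromosome 8, 121127685 to 121130644), averaged 10.4 ± 0.48 FPKM in TSMC, 2.86 ± 0.4 in VSMC and 3.17 ± 0.036 in ISMC (SD, n = 3 each). It was called higher against both.

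T-box genes followed. Tbx4, which acts in the mesenchyme of lung and trachea, had 7.62, 7.68 and 8.26 FPKM in TSMC, 0.02, 0.05 and 0 FPKM in VSMC and 0.24, 0.21 and 0.21 FPKM in ISMC. Its partner in that mesenchyme, Tbx5, had 4.53, 4.21 and 4.08 FPKM in TSMC, 0.03, 0.02 and 0 FPKM in VSMC and 0.19, 0.15 and 0.12 FPKM in ISMC. Both were close to absent outside TSMC, with log2 differences of 3.11 and 2.86 for Tbx4 and 2.37 and 2.19 for Tbx5 against VSMC and ISMC. Tbx3 averaged 11.9 ± 0.25 FPKM in TSMC, 0.8 ± 0.095 in VSMC and 2.3 ± 0.19 in ISMC, and Tbx2, also a T-box repressor, 7.26 ± 0.9, 1.69 ± 0.15 and 2.76 ± 0.22 FPKM in the same order (SD, n = 3 each). Tbx1, which acts in pharyngeal mesoderm, went the other way, with means of 0.020 FPKM in TSMC, 2.85 in VSMC and 2.21 in ISMC. Tcf21, a basic helix-loop-helix factor of lung and other visceral mesenchyme, averaged 2.07 ± 0.31 FPKM in TSMC, 0.0533 ± 0.023 in VSMC and 0.127 ± 0.075 in ISMC.

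Barx1, a homeobox factor of foregut mesenchyme known from stomach and trachea, had 9.24, 8.86 and 10.3 FPKM in TSMC, was listed at 0 in every VSMC library, and had 0.38, 0.41 and 0.45 FPKM in ISMC. The TSMC libraries stood far above the rest, and the log2 difference from ISMC was 2.89 (SE 0.07, adjusted p = 3.03e-13). Among the 14 tested factors of gut mesenchyme, which share Foxf1, Barx1 and some Hox genes with other lists, 4 were higher in TSMC than in both groups and 5 lower. Nkx2-3, a homeobox factor of midgut and spleen mesenchyme, had 0.02, 0.02 and 0.05 FPKM in TSMC, 1.95, 1.46 and 1.78 FPKM in VSMC and 2.01, 2.52 and 2.47 FPKM in ISMC. It was thus nearly absent from TSMC and low in both other groups, with log2 differences of -1.40 and -1.69. Hand2 was not called the same way: it averaged 2.99 ± 0.37 FPKM in TSMC, 0.407 ± 0.083 in VSMC and 5.33 ± 0.5 in ISMC, and its call against VSMC was lost with 5 added before taking logs. Under that setting, Tbx1, Tbx2, Tbx5, Tcf21, Foxl1 and Nkx2-3 no longer reached a log2 difference of 1 against either group, though all kept an adjusted p under 0.05.

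The Hox genes of the A and B clusters separated by their number. Those tested in the C cluster, Hoxc4 and Hoxc5 among them, were lower whatever their number. Of 39 listed genes 23 were tested, and 14 of them were lower in TSMC than in both groups and none higher, with a median log2 difference of -1.658 against VSMC and -1.558 against ISMC. In the A and B clusters, 9 genes numbered 1 to 5 were tested and 0 were called. Their log2 differences ran only from -0.45 to 0.70 against VSMC and from -0.41 to 0.65 against ISMC. All 8 tested A and B genes numbered 6 to 10 were called lower, with differences of -2.46 to -1.34 against VSMC and -2.29 to -1.23 against ISMC. In the C cluster all 5 tested genes were lower, and the 1 tested D gene, Hoxd8, was lower too. The division by number was chosen after the values were seen.

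Hoxc8 (chromosome 15, 102990539 to 102994254) was listed at 0, 0.02 and 0 FPKM in TSMC, and had 23.7, 22.4 and 24 FPKM in VSMC and 21.2, 22.4 and 20.4 FPKM in ISMC. Hoxc6, its neighbour in the cluster, had 0.13, 0.16 and 0.32 FPKM in TSMC, 31.1, 33.4 and 28.4 FPKM in VSMC and 23.9, 27.6 and 23.8 FPKM in ISMC. For both genes the TSMC libraries were at or near 0 while all 6 others were above 20 FPKM. The log2 differences were -4.60 and -4.47 for Hoxc8 and -4.73 and -4.44 for Hoxc6, against VSMC and ISMC in turn. Hoxb9, further back in the B cluster, was lower but not absent: it had 4.78, 4.63 and 5.16 FPKM in TSMC, 27.8, 28.6 and 29.8 FPKM in VSMC and 26.9, 27.8 and 26.2 FPKM in ISMC. By contrast Hoxa5, which is needed for normal trachea and lung in mouse, averaged 18.5 ± 1.1 FPKM in TSMC, 21.4 ± 0.75 in VSMC and 18.2 ± 0.081 in ISMC. The TSMC values overlapped those of ISMC and lay below those of VSMC, with log2 differences of 0.02 from ISMC and -0.20 from VSMC. Hoxb4 averaged 13.9 ± 0.14 FPKM in TSMC, 8.17 ± 0.23 in VSMC and 8.51 ± 0.34 in ISMC, a log2 difference of 0.70 and 0.65 that did not reach 1. Hoxa9, Hoxc4, Hoxc5 and Hoxc9 lost both calls with 5 added before taking logs, as their highest group means stayed under 6 FPKM. Hoxd8 was lower still, at means of 0.1 FPKM in TSMC, 1.72 in VSMC and 2.36 in ISMC. Among the A and B genes numbered 6 to 10, the lowest means were 1.68 FPKM in VSMC and 1.47 in ISMC. At such levels no log2 difference can reach 1 with 5 added.

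**Figure D2:**
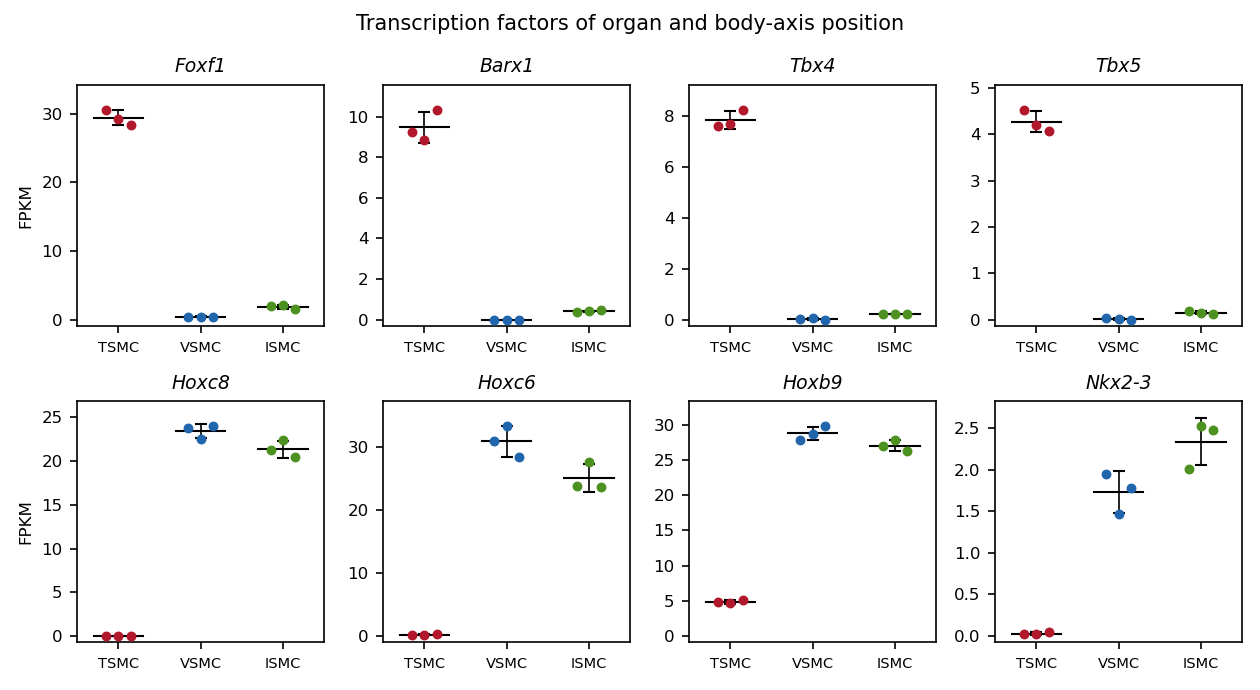
FPKM of 8 transcription factors in each library (points), with the group mean (line) and SD (error bar, n = 3), for TSMC, VSMC and ISMC. Foxf1, Barx1, Tbx4 and Tbx5 are high only in the TSMC libraries of these 9, whereas Hoxc8, Hoxc6, Hoxb9 and Nkx2-3 are low in TSMC and at similar levels in VSMC and ISMC.

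Genes of Wnt signalling went in both directions. Rspo3, an R-spondin that strengthens Wnt signalling, had 23.7, 24.2 and 27.9 FPKM in TSMC, 0.71, 0.84 and 0.93 FPKM in VSMC and 1.91, 2 and 1.9 FPKM in ISMC. Rspo2, a second R-spondin, did the opposite, with 0.82, 0.66 and 0.35 FPKM in TSMC, 8.93, 8.79 and 9.04 FPKM in VSMC and 7.23, 6.71 and 8.09 FPKM in ISMC. The groups did not overlap for either gene, so the R-spondin at the higher level was Rspo3 in TSMC and Rspo2 in VSMC and ISMC. Of 25 tested Wnt pathway genes, 4 were higher in TSMC than in both groups (Rspo3, Ror2, Dkk2 and Lgr6) and 4 lower, of which Sfrp2, Sfrp4 and Frzb encode secreted Wnt-binding proteins. Sfrp2 had 0.26, 0.28 and 0.21 FPKM in TSMC, 45.5, 49 and 44.6 FPKM in VSMC and 45.3, 50.2 and 41.1 FPKM in ISMC. The gap was complete, with log2 differences of -5.24 and -5.21 (SE 0.06 each). Frzb averaged 2.67 ± 0.16 FPKM in TSMC, 12.2 ± 0.69 in VSMC and 10.9 ± 0.31 in ISMC. Wnt5a, a noncanonical Wnt ligand, averaged 24.7 ± 2.3, 11.2 ± 0.31 and 12.1 ± 0.53 FPKM, which was called against VSMC only, and not on quantile scaling or with 5 added before taking logs. Ror2, Dkk2, Lgr6 and Sfrp4 lost both calls with 5 added before taking logs.

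Bone morphogenetic protein (BMP) signalling genes also divided. Grem1, which encodes a secreted BMP antagonist, had 487, 489 and 449.5 FPKM in TSMC, 95.3, 92.1 and 101 FPKM in VSMC and 112, 109 and 98.7 FPKM in ISMC. All TSMC libraries were well above the rest, by log2 2.29 (SE 0.05) against VSMC and 2.15 (SE 0.05) against ISMC. Bmper, an extracellular BMP modulator, averaged 32.1 ± 0.72 FPKM in TSMC, 10.2 ± 0.63 in VSMC and 11.2 ± 0.3 in ISMC. The ligand gene Bmp4 had 15.3, 15.2 and 15.3 FPKM in TSMC, 40.5, 41.1 and 39.5 FPKM in VSMC and 40, 39.2 and 39.7 FPKM in ISMC, again without overlap. Gdf15, a stress-induced member of the wider family, averaged 10.5 ± 1.5 FPKM in TSMC, 62.3 ± 3.4 in VSMC and 62.2 ± 1.7 in ISMC. Of the 35 tested genes of the TGF-β and BMP list, 3 were higher than both and 3 lower, the others being Gdf10 and Bmp6, whose calls were lost with 5 added before taking logs.

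Growth factors and their binding proteins held 8 higher and 4 lower genes of 45 tested. Igfbp5, an insulin-like growth factor binding protein, had 30.3, 31.1 and 30.7 FPKM in TSMC, 1.27, 1.24 and 0.88 FPKM in VSMC and 2.74, 2.3 and 1.87 FPKM in ISMC. Igfbp2, another binding protein, had 366, 372 and 415 FPKM in TSMC, 1402, 1399 and 1250.1 FPKM in VSMC and 1448, 1440.0 and 1569 FPKM in ISMC. The family members therefore moved in opposite directions, Igfbp5 by log2 3.90 and 3.27 and Igfbp2 by -1.81 and -1.95, and Igfbp6 was lower too at 6.81 ± 0.62, 39.4 ± 1.8 and 33.3 ± 2.1 FPKM. Fgf5, a fibroblast growth factor ligand, had 14.3, 14.2 and 12.7 FPKM in TSMC, 0.07, 0.06 and 0.07 FPKM in VSMC and 2.39, 2.44 and 2.12 FPKM in ISMC. Each group was separate from the next. Btc, the ligand betacellulin, averaged 7.46 ± 0.29 FPKM in TSMC, 0.587 ± 0.15 in VSMC and 1.29 ± 0.084 in ISMC, and its receptor gene Egfr 28.9 ± 0.97, 10.1 ± 0.51 and 9.6 ± 0.25 FPKM. The other higher members were Igf1, Fgf2, Vegfc and Pdgfra, at means of 9.89 FPKM or less in TSMC. Their calls against both groups, and that of Btc against ISMC, were lost with 5 added before taking logs. Figf, the lymphatic growth factor VEGF-D, averaged 2.85 ± 0.45 FPKM in TSMC, 15.3 ± 0.33 in VSMC and 12.9 ± 1.1 in ISMC.

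Among 22 tested chemokines and cytokines, 4 were higher and 2 lower than in both groups. Il11, a cytokine of the interleukin 6 family, had 28.3, 29.6 and 31.4 FPKM in TSMC, 3.67, 3.02 and 3.44 FPKM in VSMC and 3.93, 4.02 and 3.49 FPKM in ISMC. Lif, leukemia inhibitory factor of the same family, had 26.1, 24.3 and 27.5 FPKM in TSMC, 3.04, 3.36 and 3.2 FPKM in VSMC and 4.16, 4.18 and 3.97 FPKM in ISMC. Both stood apart in every TSMC library, by log2 2.82 and 2.68 for Il11 and 2.68 and 2.40 for Lif. Spp1, which encodes osteopontin, averaged 1153 ± 104 FPKM in TSMC, 325 ± 2.1 in VSMC and 334 ± 14 in ISMC. Ccl9 averaged 0.873 ± 0.058 FPKM in TSMC, 10 ± 0.94 in VSMC and 9.87 ± 0.64 in ISMC. Ccl8 and Cxcl1 were the remaining higher and lower gene, and each lost a call in the fit of all 21 libraries, with adjusted p of 0.116 for Ccl8 against ISMC and 0.0647 for Cxcl1 against VSMC. Neither kept a call with 5 added before taking logs. Of the cytokine receptors, Il1rl1, the receptor for interleukin 33, had 24.8, 25.1 and 25.1 FPKM in TSMC, 1.84, 1.57 and 1.69 FPKM in VSMC and 2.1, 2.7 and 1.89 FPKM in ISMC. The TSMC libraries were again clear of all others, with log2 differences of 3.27 and 3.02 (SE 0.08 each). Tnfsf18, the ligand of the T cell receptor GITR, had 12.3, 15.5 and 17 FPKM in TSMC, against at most 1.21 FPKM in VSMC and 1.55 in ISMC.

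Cck, which encodes the peptide hormone cholecystokinin, had 130.0, 124 and 139 FPKM in TSMC, 5.03, 5.42 and 5.81 FPKM in VSMC and 18.4, 18.7 and 21.4 FPKM in ISMC. Apod, the lipid carrier apolipoprotein D, had 82.9, 84.8 and 86.8 FPKM in TSMC, 0.3, 0.38 and 0.67 FPKM in VSMC and 15.7, 16.4 and 15.6 FPKM in ISMC. For each of these genes the 3 groups were separate, with ISMC between TSMC and VSMC. Cck differed from ISMC by log2 2.69, with an adjusted p of 2.46e-13 in the fit of 9 libraries but 0.0517 in the fit of all 21, which shares the spread of every group. F3, tissue factor, the cell-surface starter of coagulation, had 329.8, 341 and 321 FPKM in TSMC, 39.8, 37.4 and 44.7 FPKM in VSMC and 58.4, 56.1 and 55.5 FPKM in ISMC. The highest of the 6 other libraries was far below the lowest TSMC library. Mcpt8, a granule protease known from mouse basophils, averaged 25.9 ± 2.6 FPKM in TSMC, 1.72 ± 0.27 in VSMC and 2.81 ± 0.31 in ISMC.

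Further leading genes were picked, like the others, for going the same way in every TSMC library. Ccbe1, which activates lymphatic growth factors, averaged 17.5 ± 0.62 FPKM in TSMC, 1.59 ± 0.076 in VSMC and 2.04 ± 0.16 in ISMC. Slco4a1, an organic anion transporter, averaged 38.8 ± 1.6 FPKM in TSMC, 4.3 ± 0.2 in VSMC and 6.32 ± 0.26 in ISMC. Among those lower, Smpd3, a neutral sphingomyelinase, averaged 0.613 ± 0.09 FPKM in TSMC, 12.9 ± 0.27 in VSMC and 12.7 ± 0.21 in ISMC, and Ly6c1, a surface protein of leukocytes and endothelium, averaged 1.82 ± 0.36 FPKM in TSMC, 31.5 ± 2.2 in VSMC and 30.8 ± 2.6 in ISMC. Crct1, Asb5 and Moxd1 were also among the leading higher genes, whose libraries do not overlap by the rule that picked them.

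**Figure D3:**
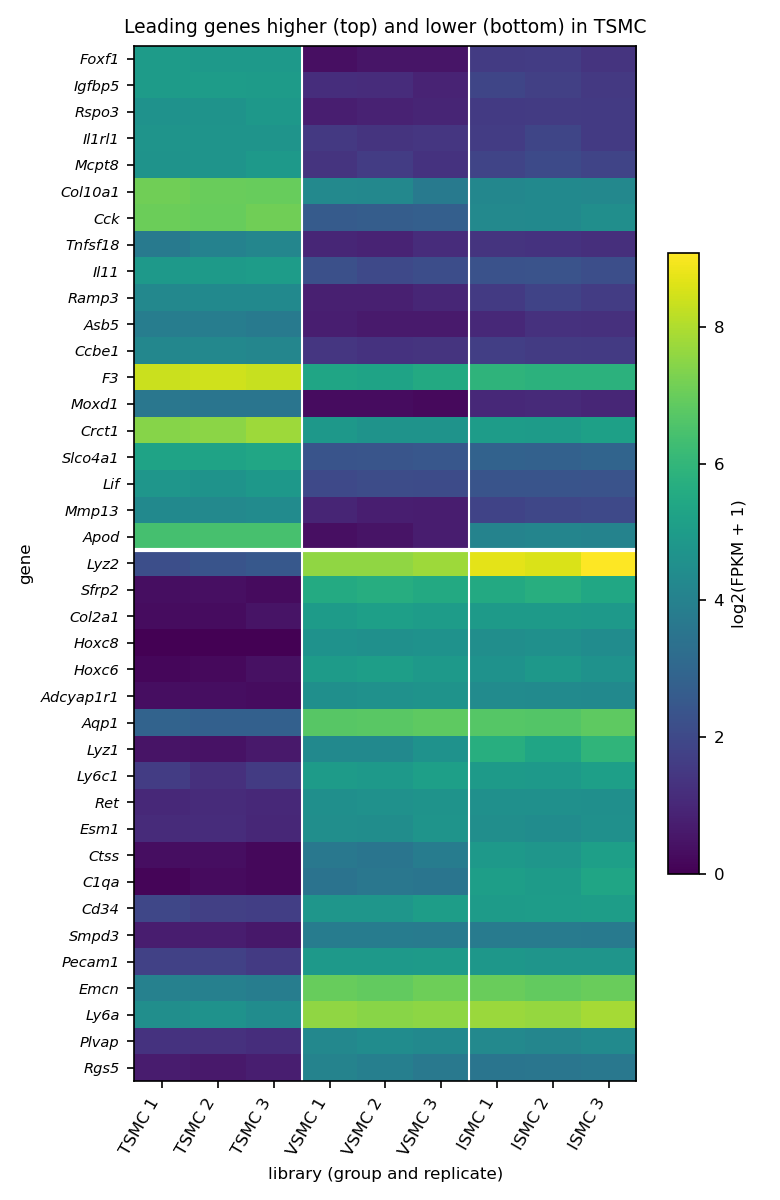
Levels of 19 leading genes higher in TSMC (top) and the 20 leading genes lower (bottom), as log2(FPKM + 1) by colour, in each library of TSMC, VSMC and ISMC. The 3 libraries of a group look alike, and VSMC and ISMC are close except for a few genes such as Apod, Cck, Lyz2 and C1qa, which are higher in ISMC than in VSMC.

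Several matrix protease genes that differed are neighbours. Mmp13, Mmp3 and Mmp10, a collagenase and 2 stromelysins, lie within a run of protease genes on chromosome 9 between positions 7272514 and 7510242 of mm10. Mmp13 had 19.1, 18.5 and 19.6 FPKM in TSMC, 0.9, 0.7 and 0.66 FPKM in VSMC and 2.59, 2.83 and 3.02 FPKM in ISMC. Mmp10 had 12.6, 13.8 and 13.1 FPKM in TSMC, 0.06, 0.1 and 0.18 FPKM in VSMC and 3.58, 3 and 3.91 FPKM in ISMC, and Mmp3 averaged 8.94 ± 0.22, 0.213 ± 0.1 and 1.57 ± 0.09 FPKM in the same order. For all 3 the TSMC libraries were highest, ISMC next and VSMC lowest, without overlap. Mmp12, the macrophage elastase, lies between them (7344397 to 7360461) and went the other way, averaging 0.15 ± 0.044 FPKM in TSMC, 1.44 ± 0.22 in VSMC and 4.15 ± 0.34 in ISMC. Its call against VSMC was lost in the fit of all 21 libraries (adjusted p = 0.266), on quantile scaling and with 5 added before taking logs, which also ended the call against ISMC (log2 differences of -0.32 and -0.83). Of 36 tested proteases and inhibitors, 4 were higher than both and 3 lower. The remaining higher gene, Serpine2, a serine protease inhibitor, averaged 91.4 ± 1.8 FPKM in TSMC, 14.5 ± 0.68 in VSMC and 36.1 ± 1.2 in ISMC.

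The 3 proteases, Il11 and F3 hold the letters TGANTCA, where N is any base, in the 150 bases before their RefSeq start. That pattern takes in the AP-1 sites TGAGTCA and TGACTCA and other sequences too. These windows are shown because the same letters precede genes described above. The genes were picked after their values were seen, and Lif, searched as well, held no match in its window. Capitals mark the motif, each line runs 5′ to 3′ on the gene's strand, and the sequences are from RefSeq on GRCm38.p6. The windows are chr9:7445672-7445821 (plus strand) for Mmp3, chr9:7502192-7502341 (plus) for Mmp10, chr9:7272364-7272513 (plus) for Mmp13, chr7:4778142-4778291 (minus) for Il11 and chr3:121723387-121723536 (plus) for F3.
Mmp3: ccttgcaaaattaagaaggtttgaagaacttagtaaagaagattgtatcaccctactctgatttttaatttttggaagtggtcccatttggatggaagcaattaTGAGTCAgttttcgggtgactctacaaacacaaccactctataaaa
Mmp10: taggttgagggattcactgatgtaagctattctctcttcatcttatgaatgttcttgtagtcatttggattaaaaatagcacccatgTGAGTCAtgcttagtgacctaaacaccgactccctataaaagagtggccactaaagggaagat
Mmp13: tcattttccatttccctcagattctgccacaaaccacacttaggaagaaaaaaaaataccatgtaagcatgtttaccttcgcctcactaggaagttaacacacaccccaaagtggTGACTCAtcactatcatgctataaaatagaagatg
Il11: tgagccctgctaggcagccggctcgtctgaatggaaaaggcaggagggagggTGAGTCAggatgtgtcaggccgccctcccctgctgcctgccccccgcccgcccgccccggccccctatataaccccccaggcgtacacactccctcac
F3: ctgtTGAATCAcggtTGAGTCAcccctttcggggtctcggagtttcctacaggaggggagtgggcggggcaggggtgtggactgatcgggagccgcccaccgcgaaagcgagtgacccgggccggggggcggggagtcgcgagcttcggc

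Counted from the gene's start, the motif began at position -46 in Mmp3, -63 in Mmp10, -35 in Mmp13 and -98 in Il11. F3 held 2 matches, TGAATCA and TGAGTCA, of which the first is not among the AP-1 sites named above. Across the 250 bases before the start, read on both strands, TGANTCA was present in 23 of the 156 genes higher than both that had a RefSeq promoter (14.7%), in 26 of 192 genes lower than both (13.5%) and in 506 of 9199 tested genes (5.5%). The share was thus similar in the higher and the lower set. TGTTTAC, a forkhead core, was present in 7.69% of the higher genes, 4.17% of the lower genes and 2.6% of all tested genes. ACGTG, the core of the hypoxia response element, was present in 23.1%, 15.6% and 25.6% in that order, and the CArG box, bound by serum response factor, in 2.56%, 3.12% and 1.46%. Such matches describe the letters in these windows only.

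The other matrix genes went in both directions. Elastin, Eln, had 62.9, 65.5 and 66.2 FPKM in TSMC, 421, 474 and 312 FPKM in VSMC and 387, 395 and 370.2 FPKM in ISMC. TSMC lay far below both, by log2 -2.59 and -2.55 (SE 0.10 each), while VSMC and ISMC overlapped. The elastic fibre list also holds genes placed there by family or name, such as Mmrn2 and Mfap3l. Of its 22 tested genes, 4 were lower than both (Eln, Mmrn2, Mfap3l and Emilin2). Only Ltbp2 was higher, at 205 ± 0.61 FPKM in TSMC, 64.6 ± 2 in VSMC and 65.3 ± 1.6 in ISMC. Emilin2 and Mfap3l lost both calls with 5 added before taking logs, and Emilin2 differed from VSMC by log2 -0.99 without VSMC replicate 3. Mmrn2, which is also known from endothelial cells, averaged 2.07 ± 0.16 FPKM in TSMC, 20.9 ± 0.83 in VSMC and 20.3 ± 0.37 in ISMC.

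Mgp, matrix Gla protein, a calcification inhibitor abundant in cartilage and smooth muscle, had 3566, 3488 and 4022 FPKM in TSMC, 800.5, 737 and 650.4 FPKM in VSMC and 723, 791 and 821 FPKM in ISMC. Tnc, tenascin-C, an adhesion-modulating glycoprotein of developing and injured tissue, had 233, 242 and 229.6 FPKM in TSMC, 36.7, 39.5 and 42.1 FPKM in VSMC and 53.7, 53.4 and 49.3 FPKM in ISMC. TSMC was highest in every library for both genes, by log2 2.34 and 2.24 for Mgp and 2.55 and 2.15 for Tnc. Has2, a hyaluronan synthase, averaged 12.8 ± 0.37 FPKM in TSMC, 0.747 ± 0.096 in VSMC and 2.04 ± 0.04 in ISMC. In all, 3 of 31 tested matricellular genes were higher and 3 lower. Col18a1, a basement membrane collagen, had 181, 177 and 177 FPKM in TSMC, 25.5, 30 and 25.5 FPKM in VSMC and 59.4, 59.3 and 54.5 FPKM in ISMC, and Lama4, a laminin chain, averaged 20.7 ± 1.2, 2.1 ± 0.14 and 5.83 ± 0.5 FPKM. Of 20 tested basement membrane genes these and Hmcn1 were higher than both and 0 were lower, where 1.78% of all tested genes were higher and 2.57% lower. Hmcn1 lost both calls with 5 added before taking logs. Among 16 interstitial collagens 2 were higher and 4 lower, including Col8a1 at 70.8 ± 0.41 FPKM in TSMC, 188 ± 1.7 in VSMC and 162 ± 2.6 in ISMC, and Col6a2 at 12.6 ± 0.98, 42.9 ± 0.64 and 48 ± 2.2 FPKM. Col10a1, the collagen of hypertrophic cartilage, averaged 129.9 ± 6.6 FPKM in TSMC, 16.3 ± 3.3 in VSMC and 18 ± 0.66 in ISMC, whereas Col2a1, the main cartilage collagen, had 0.23, 0.23 and 0.39 FPKM in TSMC, 30.8, 34 and 31.3 FPKM in VSMC and 29.7, 29.6 and 28.7 FPKM in ISMC. Those were the 2 of 7 tested cartilage markers called the same way against both groups, and they differed in direction.

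Of 38 tested genes of the contractile apparatus, 31 were called in neither comparison, 1 was higher than both and 3 were lower. Over all tested genes 92.9% were called in neither comparison (10632 of 11439). Myh11, smooth muscle myosin heavy chain, had 39.5, 42.8 and 36.7 FPKM in TSMC, 41.4, 46.6 and 43.1 FPKM in VSMC and 46.5, 48.4 and 42.4 FPKM in ISMC, and the groups overlapped. Cnn1, calponin, had 164, 163 and 162 FPKM in TSMC, 113, 109 and 109 FPKM in VSMC and 114, 112 and 120.4 FPKM in ISMC. Every TSMC library was above the others, but the log2 differences of 0.56 and 0.49 were under 1. Actg2, the enteric smooth muscle actin, averaged 239 ± 10 FPKM in TSMC, 304 ± 14 in VSMC and 324 ± 20 in ISMC. Des, the muscle intermediate filament desmin, averaged 5.25 ± 0.35 FPKM in TSMC, 1.01 ± 0.13 in VSMC and 4.83 ± 0.36 in ISMC, so it separated VSMC alone, though not with 5 added before taking logs.

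The largest contractile difference was in Ppp1r14a, which encodes CPI-17, the inhibitor of myosin phosphatase that sensitizes smooth muscle to calcium. It had 7.94, 7.94 and 8.35 FPKM in TSMC, 53.4, 46.0 and 46.2 FPKM in VSMC and 50.5, 48.1 and 45.6 FPKM in ISMC. TSMC lay below all others by log2 -2.44 and -2.43 (SE 0.06 each; adjusted p = 1.49e-13 and 2.6e-13). Hspb7, a small heat shock protein of muscle, averaged 13.5 ± 1.5 FPKM in TSMC, 58.9 ± 2 in VSMC and 57.2 ± 0.94 in ISMC. Itga8, an integrin chain of smooth muscle, had 30.2, 28.9 and 24.1 FPKM in TSMC, 11, 11.2 and 11.5 FPKM in VSMC and 11.6, 11.2 and 9.95 FPKM in ISMC, all TSMC libraries being higher. Casq2, calsequestrin of the calcium store, had group means of 2.33 FPKM or less and lost its calls on quantile scaling and with 5 added before taking logs. Of the 21 tested transcription regulators of smooth muscle, Nfatc4 was higher, at 26.5 ± 0.76 FPKM in TSMC, 8.29 ± 0.18 in VSMC and 8.52 ± 0.22 in ISMC, and Gata6 was lower, at 3.91 ± 0.17, 9.27 ± 0.4 and 9.21 ± 0.078 FPKM, a call lost with 5 added before taking logs. Acta1, skeletal α-actin, stood out among muscle markers with 294, 282 and 296 FPKM in TSMC, 67.4, 64 and 63.1 FPKM in VSMC and 75.6, 74.5 and 77 FPKM in ISMC, while the skeletal muscle genes Myod1, Myf5, Myf6 and Ttn were listed at 0 in all 9 libraries.

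**Figure D4:**
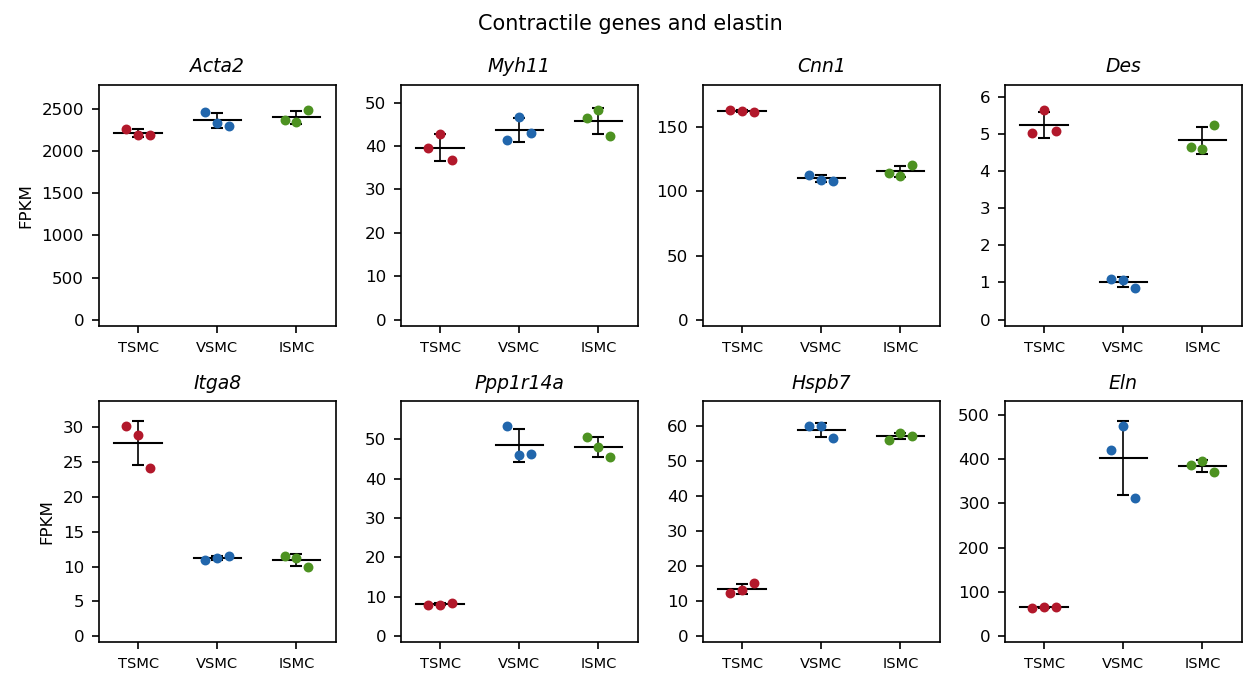
FPKM of 7 contractile genes and elastin in each library (points), with the group mean (line) and SD (error bar, n = 3), for TSMC, VSMC and ISMC. Acta2 and Myh11 lie at like levels in the 3 groups, whereas Ppp1r14a, Hspb7 and Eln are lower and Itga8 is higher in TSMC.

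Receptors for constrictor agonists were mixed. Of 50 listed genes 19 reached the level tested, 4 of them higher than both groups and 5 lower. The muscarinic receptors through which acetylcholine constricts airways were at the bottom of the scale in these cultures: Chrm2 was listed at 0 in every TSMC and VSMC library and at most 0.03 FPKM in ISMC, and Chrm3 averaged 0.177 ± 0.015 FPKM in TSMC, 0.187 ± 0.025 in VSMC and 0.24 ± 0.044 in ISMC. Neither was tested. F2r, the thrombin receptor PAR1, had 433, 430.0 and 442 FPKM in TSMC, 179.6, 174 and 179 FPKM in VSMC and 174, 177 and 170.2 FPKM in ISMC. Every TSMC library was above all others by log2 1.29 and 1.32 (SE 0.03 each). P2ry14, Adra2a and Htr2b, receptors for UDP-sugars, catecholamines and serotonin, were also higher, each at a mean of under 10 FPKM in TSMC, and their calls were lost with 5 added before taking logs. For Htr2b the log2 difference from ISMC was 0.98 without TSMC replicate 2 and just under 1 without ISMC replicate 1. S1pr3, a sphingosine 1-phosphate receptor, had 1.27, 1.26 and 1.38 FPKM in TSMC, 9.8, 10.1 and 10.1 FPKM in VSMC and 8.48, 8.59 and 8.2 FPKM in ISMC, and S1pr1 of the same family averaged 4.51 ± 0.74, 15.3 ± 0.55 and 15.4 ± 0.37 FPKM. Both were lower in TSMC, as were Adra1d at 4.59 ± 0.23, 15 ± 0.59 and 13.3 ± 0.45 FPKM, P2ry6 at 2.26 ± 0.35, 7.62 ± 0.73 and 8.96 ± 0.84 FPKM, and Tbxa2r, the thromboxane receptor, at 3.14 ± 0.14, 9.46 ± 0.5 and 8.43 ± 0.21 FPKM. P2ry6 and Tbxa2r lost both calls, and Adra1d that against ISMC, with 5 added before taking logs.

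On the relaxant side, of 33 tested genes of relaxation signalling, 2 were higher than both groups and 3 lower. Ramp3, an accessory protein that turns the calcitonin receptor-like receptor into an adrenomedullin receptor, had 17.7, 18.8 and 18.8 FPKM in TSMC, 0.75, 0.76 and 0.97 FPKM in VSMC and 1.9, 2.58 and 2.03 FPKM in ISMC. TSMC stood clear by log2 3.41 and 2.62 (SE 0.08 each). Calcrl, the receptor that this protein joins, averaged 2.22 ± 0.18 FPKM in TSMC, 6.6 ± 0.52 in VSMC and 5.87 ± 0.44 in ISMC. The pair thus differed in direction, although Calcrl lost both calls with 5 added before taking logs. Npr3, the clearance receptor of natriuretic peptides, averaged 12.3 ± 0.52 FPKM in TSMC, 3.6 ± 0.23 in VSMC and 3.9 ± 0.057 in ISMC, and lost its call against ISMC with 5 added before taking logs. Rgs5, a regulator of G protein signalling found in vascular mural cells and pericytes, had 0.63, 0.55 and 0.71 FPKM in TSMC, 15.8, 14.3 and 11.8 FPKM in VSMC and 10.6, 10.8 and 11.4 FPKM in ISMC, with no overlap between TSMC and the rest. None of 26 tested ion channel and calcium handling genes was called in either comparison, their log2 differences lying between -0.82 and 0.7 against VSMC and between -0.94 and 0.76 against ISMC, where 92.9% of all tested genes were called in neither.

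Prostaglandin genes held 2 higher and 2 lower of 14 tested, where 1.78% of all tested genes were higher and 2.57% lower than both. Ptgs2, cyclooxygenase-2, had 366, 385 and 338 FPKM in TSMC, 77.3, 78.6 and 90.3 FPKM in VSMC and 96.6, 95.1 and 95.8 FPKM in ISMC. Pla2g4a, the phospholipase that frees arachidonic acid for it, had 92.1, 89.1 and 84.4 FPKM in TSMC, 26, 24.3 and 25.7 FPKM in VSMC and 28.6, 27.8 and 27.8 FPKM in ISMC. Both steps at the head of the pathway were higher in all TSMC libraries, by log2 2.13 and 1.91 for Ptgs2 and 1.77 and 1.62 for Pla2g4a. Slco2a1, the transporter that takes prostaglandins up, averaged 5.18 ± 0.43 FPKM in TSMC, 18 ± 0.65 in VSMC and 17.7 ± 0.93 in ISMC.

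Retinoid genes held 3 higher and 2 lower of 15. Aldh1a2, which makes retinoic acid, had 13.9, 14.5 and 14.9 FPKM in TSMC, 2.58, 2.46 and 2.26 FPKM in VSMC and 2.74, 2.94 and 2.86 FPKM in ISMC, and Cyp26b1, which breaks it down, averaged 0.36 ± 0.15, 3.83 ± 0.051 and 3.3 ± 0.38 FPKM. The synthetic enzyme was higher and the degrading enzyme lower in TSMC, but both calls of Cyp26b1 were lost with 5 added before taking logs. The other lower gene of the list had log2 differences of -2.31 and -2.19. Crabp1 and Rdh10, the other higher genes, also lost both calls with 5 added. Crabp1 lost its call against VSMC on quantile scaling (0.93) and median scaling (0.96) as well. Hmox1, heme oxygenase-1, a stress-induced enzyme, had 607, 607 and 611 FPKM in TSMC, 163, 149.6 and 167 FPKM in VSMC and 191, 199 and 194 FPKM in ISMC. Of 27 tested stress response genes it was the 1 called the same way, with TSMC far above the rest. For the list, that count is near what the shares over all tested genes would give. Glycolysis and hypoxia genes held 4 higher and 0 lower of 29, with medians of 0.409 and 0.399. Among them Slc2a1, the glucose transporter GLUT1, averaged 92.8 ± 4.9 FPKM in TSMC, 39.5 ± 0.66 in VSMC and 39.4 ± 1.3 in ISMC, Slc16a3, a lactate exporter, 65.8 ± 4.5, 22.8 ± 1.6 and 21.7 ± 0.59 FPKM, and Bnip3, a mitophagy gene induced by hypoxia, 58.7 ± 2.5, 21 ± 1.1 and 20.8 ± 0.34 FPKM. None of 42 cell cycle genes, 25 cholesterol synthesis genes, 24 interferon-stimulated genes or 22 immediate early genes was called the same way against both groups, where 1.78% of all tested genes were higher and 2.57% lower than both.

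Many markers of endothelial cells and macrophages were lower in TSMC. Of 14 tested endothelial markers 9 were lower than both groups, 0 higher and 4 called in neither comparison. Among the uncalled, Flt1, a receptor of vascular endothelial growth factor, averaged 11.3 FPKM in TSMC, 5.78 in VSMC and 5.52 in ISMC, with log2 differences of 0.86 and 0.92. The 16 markers summed to 106 to 109 FPKM in TSMC libraries, 334 to 348 in VSMC libraries and 321 to 328 in ISMC libraries. Pecam1, the endothelial adhesion molecule CD31, had 2.42, 2.4 and 1.93 FPKM in TSMC, 29, 28.8 and 29.7 FPKM in VSMC and 26.8, 25.8 and 25.6 FPKM in ISMC. Cdh5, VE-cadherin, averaged 5.03 ± 0.38 FPKM in TSMC, 47.8 ± 0.5 in VSMC and 42.1 ± 1.4 in ISMC, and Emcn, the endothelial sialoglycoprotein endomucin, 14.3 ± 0.82, 126 ± 7.8 and 124 ± 4.8 FPKM. None of these groups overlapped TSMC. In such bulk libraries fewer cells of a type and less RNA per cell cannot be told apart. The leading lower genes Plvap, Esm1 and Aqp1 are also known from endothelium, at means of 1.4, 1.14 and 6.04 FPKM in TSMC, 19.1, 22.6 and 108.1 FPKM in VSMC and 18.3, 21.3 and 104.8 FPKM in ISMC, and the part that endothelial cells have in them was not tested.

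Of 14 tested macrophage and leukocyte markers 10 were lower than both. With 5 added before taking logs Adgre1, C1qb, C1qc and Csf1r lost their calls against VSMC, at log2 differences of -0.58, -0.91, -0.99 and -0.62. The 20 markers summed to 12.3 to 14.5 FPKM in TSMC libraries, 255 to 282 in VSMC libraries and 539 to 733 in ISMC libraries. Lyz2, lysozyme of macrophages, had 3.54, 4.08 and 4.64 FPKM in TSMC, 190.4, 189 and 214 FPKM in VSMC and 423, 382 and 542 FPKM in ISMC, the largest log2 difference of the lower set at -5.29 and -6.46. Its near-identical neighbour Lyz1 followed at 0.433 ± 0.078, 20.5 ± 2.9 and 50.3 ± 11 FPKM, and how reads were split between that pair is uncertain. C1qa, a complement chain made by macrophages, had 0.1, 0.19 and 0.14 FPKM in TSMC, 10, 11.2 and 10.7 FPKM in VSMC and 32.9, 30.6 and 39.5 FPKM in ISMC. All 3 groups were separate for C1qa, with TSMC near 0. Ctss, cathepsin S, averaged 0.23 ± 0.069 FPKM in TSMC, 11.6 ± 1.2 in VSMC and 29.9 ± 3.9 in ISMC. The integrins Itgam and Itgb2, which are leukocyte genes, made up 2 of the 4 lower integrins, beside Itga3 at 11.4 ± 0.77, 57.9 ± 3.5 and 56.7 ± 1.5 FPKM and Itga4. Itgam, Itgb2 and Itga4 lost both calls with 5 added before taking logs. The part of macrophages in the other lower genes was not tested.

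Fibroblast and further markers did not move as a block. Of 15 tested fibroblast markers 3 were higher and 5 lower than both. The 3 higher, Fap, Pdgfra and Dpep1, lost both calls with 5 added before taking logs. Cd34, Ly6a and Thy1, surface proteins of stromal cells, averaged 2.41 ± 0.32, 21.8 ± 1.5 and 155 ± 14 FPKM in TSMC, 28.4 ± 3.6, 184.3 ± 8.3 and 423.7 ± 9.6 FPKM in VSMC and 31.5 ± 1.1, 213.3 ± 15 and 393.3 ± 3.9 FPKM in ISMC, and all 3 genes were lower in TSMC. Fap, fibroblast activation protein, averaged 3.51 ± 0.053, 0.0633 ± 0.025 and 0.15 FPKM and was higher. Adipocyte genes held 3 lower of 6 tested, led by Fabp4, a fatty acid binding protein, at 8.81 ± 0.7 FPKM in TSMC, 34.5 ± 2.6 in VSMC and 35.5 ± 2.7 in ISMC. Of 3 tested airway epithelial markers, Krt19 and Cldn3 were lower in TSMC, and the secretory cell genes Bpifa1 and Scgb3a2 were listed at 0 in all 9 libraries. Ret, the receptor of glial cell line-derived neurotrophic factor, had 1.06, 1.19 and 1.08 FPKM in TSMC, 22.1, 23.5 and 24.1 FPKM in VSMC and 22.6, 22.4 and 22.3 FPKM in ISMC, so it too was lower in TSMC than in all other libraries. Adcyap1r1, the receptor of the neuropeptide PACAP, averaged 0.247 ± 0.0058, 23.2 ± 1 and 19.4 ± 0.41 FPKM.

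Glial and neuronal markers differed among themselves. Of 13 tested, 7 were higher than VSMC and 1 lower, while 1 was higher than ISMC and 3 lower. Only Ret, lower, and Mbp, the myelin basic protein gene, higher, were called the same way against both groups, and the call of Mbp against ISMC was lost when ISMC library 1 or 2 or TSMC library 2 was left out (0.95, 0.98 and 0.96), on median scaling (0.98) and, as that against VSMC, with 5 added before taking logs. Sox10, the transcription factor of crest-derived glia, had 26.6, 27.3 and 27.3 FPKM in TSMC, 0.02, 0.06 and 0 FPKM in VSMC and 20.6, 22.4 and 17.2 FPKM in ISMC. Ngfr, the low-affinity neurotrophin receptor, singled out after its values were seen, had 80.3, 77.6 and 75.4 FPKM in TSMC, 0.09, 0.11 and 0.15 FPKM in VSMC and 56.6, 56.9 and 50.1 FPKM in ISMC. Against VSMC the log2 differences were 4.77 and 6.14, and against ISMC 0.42 and 0.51. Foxd3, Cdh19 and Erbb3, a crest factor, a cadherin and a neuregulin receptor of glia, likewise stood at 0.067 FPKM or less in VSMC and at 3.63 FPKM or more in TSMC and ISMC.

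The counts of other lists are set beside 1.78% higher and 2.57% lower than both over all tested genes. In lists this short, 1 called gene already exceeds these shares. Of 23 tested factors of vascular and neural crest mesenchyme, Nr2f1, an orphan nuclear receptor, was higher, averaging 12 ± 0.42 FPKM in TSMC, 2.4 ± 0.1 in VSMC and 2.66 ± 0.1 in ISMC, and Foxc1, a forkhead factor, was lower and lost both calls with 5 added before taking logs. Of 19 complement and acute phase genes, Serping1, the inhibitor of complement C1, averaged 22.6 ± 2.7 FPKM in TSMC, 6.35 ± 0.91 in VSMC and 8.29 ± 0.47 in ISMC and was higher, as was Cp, which lost both calls in the fit of all 21 libraries (adjusted p = 0.0811 against VSMC and 0.153 against ISMC). In all, 2 genes of that list were higher than both and 1 lower. The Notch list held 0 higher and 1 lower of 14 tested, the mesothelial list 0 and 1 of 6, the pericyte list 0 and 1 of 7, and the lists for interstitial cells of Cajal and for imprinted genes none of 5 and of 9.

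The higher genes tended to stand a little above VSMC in ISMC as well. The ISMC mean exceeded the VSMC mean in 173 of the 204 genes (84.8%), against 64% of all tested genes. On mean FPKM, ISMC lay at a median of 5.81% of the way from VSMC to TSMC, with quartiles of 2.21% and 12.2%. VSMC and ISMC were called apart in 23 of the 204 higher genes (11.3%) and in 20 of the 294 lower genes (6.8%). Both shares were above that over all 11439 tested genes, of which 2 were called higher in VSMC and 152 higher in ISMC. The same VSMC and ISMC values had served to choose the sets, so these shares are descriptive only. Set against the testicular cells of the series, 154 of the 204 higher genes had a TSMC mean above the means of peritubular myoid, Sertoli and Leydig cells, and 138 of the 294 lower genes had a TSMC mean below all of them. Over all tested genes these shares were 31.1% and 37.2%, and the sets had been chosen with the TSMC values. Foxf1, for example, averaged 0.74 FPKM in peritubular myoid cells, 1.11 in Sertoli cells and 1.03 in Leydig cells.

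**Figure D5:**
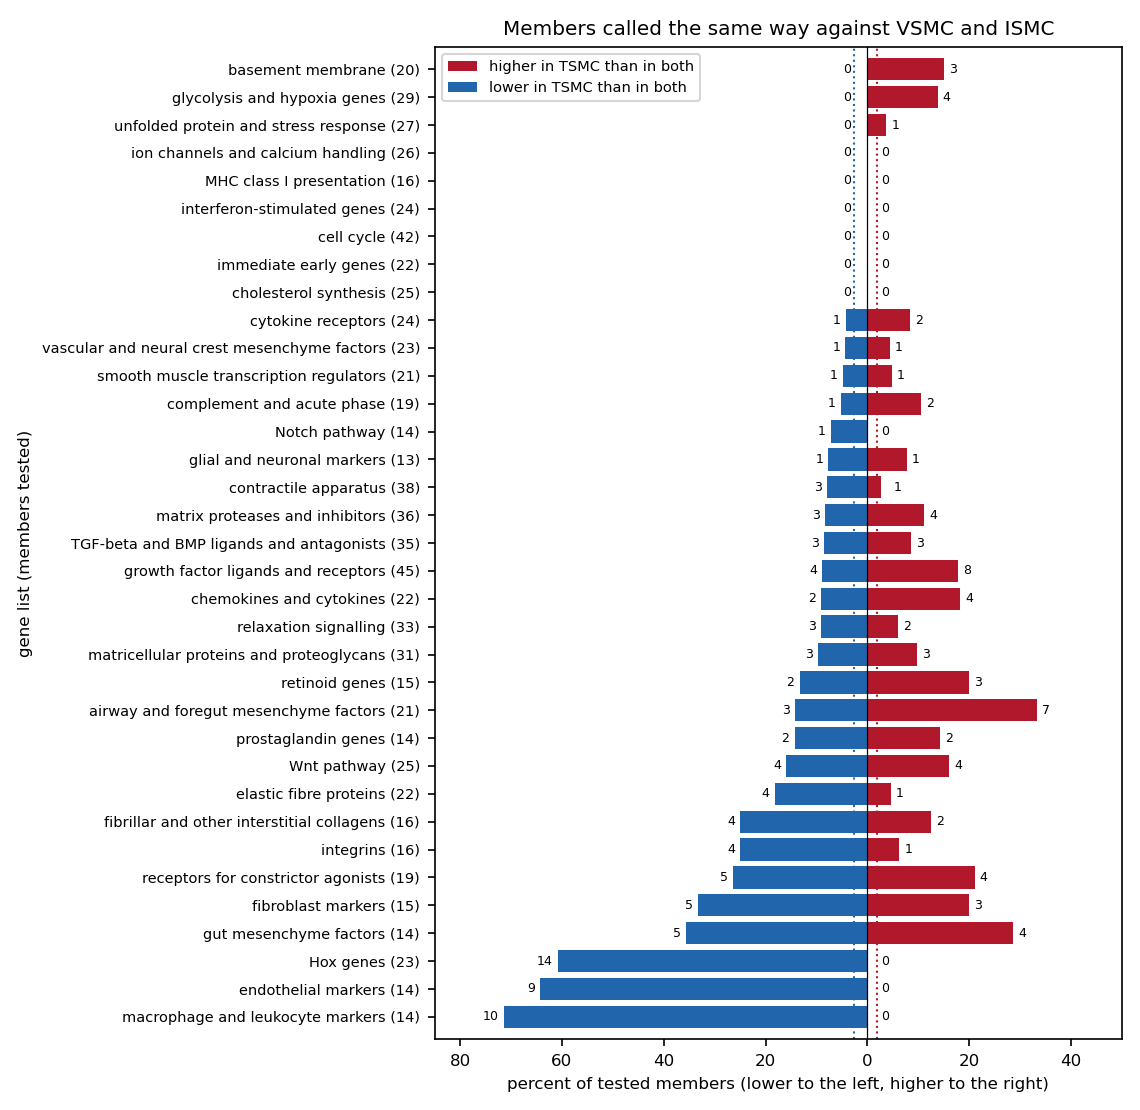
Percent of the tested members of each gene list (number tested in brackets; lists with at least 10) that were called higher (red, right) or lower (blue, left) in TSMC than in both VSMC and ISMC, with the number of genes at each bar. Dotted lines mark all tested genes (1.78% higher, 2.57% lower), and macrophage, endothelial and Hox genes reach furthest to the left and airway and foregut mesenchyme factors furthest to the right.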

How the data were processed

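Total RNA of cultured cells was sequenced, and the authors deposited a table of FPKM per gene and library. Tools named by the submitters' processing notes were RSEM 1.2.12, Bowtie2 2.2.5 and HISAT2 2.0.4, with the build mm10, and no roles are given. Of 22135 rows 19285 held values, and 27 symbols that a spreadsheet had turned into dates were restored from gene identifiers, of which RefSeq's table held 22048. Gene positions were copied from the table the authors deposited.

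FPKM were taken as log2(FPKM + 1), which shrinks differences of low genes. The 9 smooth muscle libraries entered 1 limma model (limma 3.58.1, R 4.3.3) with a mean per group and a trend of variance on level, which left 6 residual degrees of freedom. P-values are two-sided and adjusted by Benjamini-Hochberg over the 11439 genes of a comparison. The model was checked on simulated data with normal noise at the spread of these replicates. Shifts were planted only in genes at higher levels, so that check does not cover low genes. Depth was inferred from the spacing of low FPKM. FPKM are relative to each library's total, and only their number and spread set the precision.

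Members, the 45 gene lists and the naming rule were chosen with earlier results of these data known. Under that rule the text names up to 20 leading genes a direction (at least 10 FPKM, libraries not overlapping, no model-number symbols), up to 6 called members of each list, fixed smooth muscle and position genes, genes called in opposite directions, and defining markers. Further members were named after their values were seen. Alternatives covered the addend, the filter, scaling, robust moderation, the libraries fitted, a replicate block and leaving out each library. Summary columns of a group named ET1 were not used. A few genes that the naming rule gives are not reported here.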

Additional observations from a re-analysis of the deposited data

How the results depend on the processing

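Against VSMC and ISMC, TSMC gave 369 and 214 higher and 318 and 407 lower genes, with 204 and 294 shared. Adding 0.1 before taking logs gave 488 lower against VSMC, 336 higher against ISMC, 319 higher than both and 462 lower than both. Adding 5 gave 143 higher and 111 lower against VSMC, 91 and 143 against ISMC, and 86 and 102 for both and ended 135 calls of named genes. A filter of at least 5 FPKM in 3 libraries, which tests fewer genes, left 229 higher and 203 lower against VSMC, 226 lower against ISMC and 194 lower than both. Leaving out a library gave 195 to 207 genes higher and 289 to 302 lower than both. Median scaling moved the split to 190 higher and 309 lower and quantile scaling to 209 and 269, while the fit of all 21 libraries gave 199 and 283. With the replicate number as a block the counts were the same, 204 and 294. Deviations of same-numbered libraries correlated at -0.27 to 0.186, and those of differently numbered libraries at -0.186 to 0.23. No pairing by number was seen, but with 3 libraries a group these values cannot exclude it.

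Of 7940 values of named genes under 19 alternatives 4 changed sign, all of genes called in no comparison. Hoxa5 gave -0.0037 against ISMC on quantile scaling and -0.02 to 0.05 when a library was left out, and Tagln -0.06 to 0.0049 against VSMC. The cause was not tested. At this depth genes under 1 FPKM were left untested unless 3 libraries reached that level.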

Other observations

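Only 3 genes were called in opposite directions, above VSMC and below ISMC. Serpina3n, an acute phase protease inhibitor, had 3.82, 4.31 and 3.7 FPKM in TSMC, 1.02, 0.89 and 0.66 FPKM in VSMC and 12.7, 13.1 and 10.4 FPKM in ISMC. The groups were separate in each direction, by log2 1.42 from VSMC and -1.40 from ISMC, and the second call was lost in the fit of all 21 libraries (adjusted p = 0.051). Tppp3, a tubulin-associated protein, averaged 4.72 ± 0.27 FPKM in TSMC, 0.597 ± 0.31 in VSMC and 11.9 ± 1.3 in ISMC, and Vat1l 1.38 ± 0.27, 0.01 ± 0.017 and 4.26 ± 0.37 FPKM. All 3 lost their calls with 5 added before taking logs.

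Some immune genes set ISMC apart instead of TSMC. Saa3, an acute phase protein singled out after its values were seen, had 3.36, 4.38 and 4.28 FPKM in TSMC, 5.02, 4.33 and 4.74 FPKM in VSMC and 62.1, 59.3 and 69.6 FPKM in ISMC. TSMC and VSMC overlapped, and the log2 difference from ISMC was -3.69. H2-D1, a classical class I histocompatibility gene, averaged 33.1 ± 2.7 FPKM in TSMC, 40.6 ± 0.69 in VSMC and 79.8 ± 0.75 in ISMC. Of 16 tested class I presentation genes 0 were called against VSMC, while 1 was higher and 3 lower against ISMC. Y-linked genes were present in all groups, and none of the 4 tested genes of that list was called. Over all tested genes 92.9% were called in neither comparison. Ddx3y averaged 17.1 ± 1 FPKM in TSMC, 13.5 ± 0.53 in VSMC and 12.3 ± 0.94 in ISMC. Eif2s3y came closest to a call, with log2 differences of 0.98 from VSMC and 0.89 from ISMC. The 4 genes summed to 43.1 to 47.1 FPKM in TSMC libraries, 26.9 to 30.95 in VSMC libraries and 26.8 to 29.5 in ISMC libraries. The cause was not tested.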
